A study of Rattus norvegicus with 16 samples.

Results

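Lens fibre structural genes were followed across 16 rat arrays, 12 labelled retina and 4 labelled pineal gland. The members are Mip, Lim2, Bfsp1, Lenep and Grifin, taken by annotated gene symbol as 5 of the 4736 genes named on the array. They were read by 6 probe sets: 2 for Mip (X53052cds_at and X53052cds_g_at) and 1 each for Lim2 (S55224_s_at), Bfsp1 (AB003104_at), Lenep (U15149_at) and Grifin (AF082160_at). The retina arrays were titled CT12, CT6, ZT12 and ZT6, with 3 arrays each, and the pineal had 1 array for each of these conditions. ZT, Zeitgeber time, conventionally counts hours from lights on, and CT, circadian time, counts hours of the internal clock without a light cycle. The labels give total RNA of Rattus norvegicus and state neither strain, age, lighting nor how tissue was dissected. They do not say whether arrays numbered 1 to 3 came from separate animals, so p-values measure only the spread between these samples, which may be technical. Source names of all 4 pineal arrays include retina. Those of the retina arrays numbered 3 and of the pineal ZT12 array begin with brain. The description of the pineal ZT12 array gives hour 6, and groups follow the titles.

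The lens grows by adding fibre cells, which elongate, lose their organelles and fill with soluble crystallins. Their membranes and cytoskeleton carry proteins found almost nowhere else, and the genes are used as lens markers. Mip encodes aquaporin 0, the water channel and junction protein of fibre membranes. Lim2 encodes another abundant integral protein of those membranes. Bfsp1 encodes filensin, which assembles with phakinin into the beaded filament, an intermediate filament of the lens. Grifin encodes a soluble galectin-related protein of fibre cells. Lenep encodes a small protein first described in lens epithelium, so the word fibre is less apt for it.

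The promoter windows of the 5 genes are shown, each with 250 bases before and 50 bases after a transcript start. They run 5′ to 3′ along the gene, from RefSeq on GRCr8. Whether they have a part in the levels of these genes was not tested. All 5 genes were matched by symbol, with 1 window each. The annotated spans of Mip (chr7:1228089-1237707) and Bfsp1 (chr3:151648588-151706153) extend further upstream than their windows. Capitals mark matches on either strand to the motifs searched, which were TATAAA (the TATA box), TGCTGA (a Maf binding core), TGACTCA (an AP-1 and Maf core), GAANNTTC (a heat shock element core) and AACAAAG (a Sox site). No marked matches overlap each other. The windows are Mip at chr7:1231655-1231954 on the plus strand, Lim2 at chr1:102973938-102974237 on the plus strand, Bfsp1 at chr3:151682788-151683087 on the minus strand, Lenep at chr2:177117810-177118109 on the minus strand, Grifin at chr12:19194579-19194878 on the plus strand.
Mip: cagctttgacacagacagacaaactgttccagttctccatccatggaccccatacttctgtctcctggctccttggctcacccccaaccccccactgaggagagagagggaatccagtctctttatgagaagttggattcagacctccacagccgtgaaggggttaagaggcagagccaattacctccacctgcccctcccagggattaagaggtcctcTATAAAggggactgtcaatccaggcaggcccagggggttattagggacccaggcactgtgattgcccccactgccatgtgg
Lim2: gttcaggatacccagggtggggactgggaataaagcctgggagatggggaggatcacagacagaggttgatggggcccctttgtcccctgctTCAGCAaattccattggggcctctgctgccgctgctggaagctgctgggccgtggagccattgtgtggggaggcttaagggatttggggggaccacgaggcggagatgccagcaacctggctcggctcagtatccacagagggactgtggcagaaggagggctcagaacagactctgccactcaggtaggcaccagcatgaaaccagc
Bfsp1: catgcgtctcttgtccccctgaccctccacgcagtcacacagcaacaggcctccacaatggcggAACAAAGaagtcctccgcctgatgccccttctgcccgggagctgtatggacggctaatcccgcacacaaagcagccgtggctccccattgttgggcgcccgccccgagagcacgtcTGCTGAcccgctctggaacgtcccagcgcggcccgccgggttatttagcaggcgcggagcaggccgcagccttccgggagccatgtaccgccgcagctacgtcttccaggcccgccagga
Lenep: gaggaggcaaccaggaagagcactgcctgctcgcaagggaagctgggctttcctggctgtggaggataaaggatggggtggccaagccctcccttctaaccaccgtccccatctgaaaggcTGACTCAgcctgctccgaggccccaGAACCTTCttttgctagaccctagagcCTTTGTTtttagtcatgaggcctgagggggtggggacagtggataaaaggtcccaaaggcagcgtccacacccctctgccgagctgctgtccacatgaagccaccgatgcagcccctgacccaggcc
Grifin: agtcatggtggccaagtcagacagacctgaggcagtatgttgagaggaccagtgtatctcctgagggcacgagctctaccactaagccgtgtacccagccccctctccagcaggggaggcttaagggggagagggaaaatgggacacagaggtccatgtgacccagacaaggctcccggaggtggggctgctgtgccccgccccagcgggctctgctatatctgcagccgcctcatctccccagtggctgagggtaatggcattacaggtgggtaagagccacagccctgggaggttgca
Each match is a description of letters in these windows. TATAAA was found for Mip, beginning at position -31, and is present in 14.2% of the 33469 windows of this length in the rat table. TGCTGA occurred on the minus strand of the Lim2 window and on the plus strand of the Bfsp1 window, against 18.4% of all windows. Bfsp1 and Lenep held AACAAAG (5.98% of all windows), and Lenep also held TGACTCA (4.63%) and GAANNTTC (8.59%). The Grifin window held none of the 5 motifs. No motif was found in more than 2 of the 5 windows.

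One array stood apart and enters many of the results. The array titled retina CT12 array 1 had a median Spearman correlation of 0.837 with the other retina arrays, against 0.944 to 0.962 for the other 11. Its 5 measured rod photoreceptor genes summed to an intensity of 24157, against 283080 on CT12 array 2, 327629 to 454759 on the other 10 retina arrays and 63587 to 90196 on the pineal arrays. Its 4 measured pineal genes summed to 577.3, against 1171 to 2460 on the other retina arrays and 49394 to 67241 in the pineal. The retina label was thus borne out by rod genes on 11 arrays, and this array was low in both sets. The trimmed mean intensity was 2503 to 2506 on all 16 arrays. Comparisons that use CT12 are given with and without this array. The retina groups share their estimate of the spread, so this array also enters the errors and p-values of the other retina comparisons.

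Mip varied strongly among the retina arrays and much less among the pineal arrays. Its first probe set, X53052cds_at, read 1158, 1217, 1193 and 1590 in the pineal at CT12, CT6, ZT12 and ZT6. In the retina it read 119932, 63330 and 5757 at CT12 (arrays 1, 2 and 3), against 4113, 6356 and 1065 at CT6. It read 8577, 1868 and 3285 at ZT12, against 3010, 1563 and 4434 at ZT6. Arrays 1 and 2 of CT12 thus stood far above everything else, and CT6 array 3 lay below all 4 pineal arrays. The second probe set, X53052cds_g_at, read 64.2, 97.8, 54.8 and 110.8 in the pineal at CT12, CT6, ZT12 and ZT6. In the retina it read 118654, 51940 and 2568 at CT12, against 1686, 3251 and 70.7 at CT6. It read 4377, 214.0 and 1492 at ZT12, against 1513, 95.4 and 1073 at ZT6. Its retina arrays spanned 1679-fold, against 113-fold for the first probe set. The lowest retina value of this probe set lay within the pineal range, so the span is taken against a level not shown to be above background.

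Lim2 spanned 299-fold over the retina arrays. It read 803.1, 904.0, 943.7 and 825.5 in the pineal at CT12, CT6, ZT12 and ZT6, a spread of 1.18-fold. In the retina it read 209612, 68543 and 9184 at CT12, against 7235, 8476 and 1117 at CT6. It read 18924, 4226 and 5496 at ZT12, against 6400, 700.5 and 5324 at ZT6. All 3 CT12 arrays lay above all 3 CT6 arrays, while ZT12 and ZT6 overlapped. ZT6 array 2 was the only retina array of the 12 below the pineal range.

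Bfsp1 was the gene whose dimmest retina arrays lay well under the pineal. It read 811.8, 903.7, 832.6 and 625.8 in the pineal at CT12, CT6, ZT12 and ZT6. In the retina it read 115540, 29685 and 2424 at CT12, against 1811, 2044 and 99.8 at CT6. It read 13702, 748.2 and 1040 at ZT12, against 1813, 80.2 and 1478 at ZT6. CT6 array 3 and ZT6 array 2 were below all 4 pineal arrays, and 9 of the 12 retina arrays were above them. The retina arrays spanned 1441-fold.

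Lenep had a high floor and moved least on the dimmer arrays. It read 3671, 3093, 3305 and 4056 in the pineal at CT12, CT6, ZT12 and ZT6. In the retina it read 257900, 56513 and 11627 at CT12, against 4290, 5175 and 3432 at CT6. It read 17962, 4205 and 3876 at ZT12, against 4967, 3213 and 3544 at ZT6. Leaving aside CT12 arrays 1 and 2, the other 10 retina arrays spanned 5.59-fold, and 4 of the 12 retina arrays lay within the pineal range. Without detection calls in the file, its pineal level of 3093 to 4056 cannot be divided into transcript and background.

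Grifin separated the tissues completely. It read 199.6, 496.4, 198.4 and 159.7 in the pineal at CT12, CT6, ZT12 and ZT6, and the lowest of the 12 retina arrays, CT6 array 3, read 1544. In the retina it read 315453, 185076 and 43451 at CT12, against 30254, 35231 and 1544 at CT6. It read 66827, 20419 and 27870 at ZT12, against 29012, 1969 and 34140 at ZT6. The CT12 arrays lay above the CT6 arrays without overlap, and ZT6 array 2 stood far below the other ZT6 arrays.

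**Figure D1:**
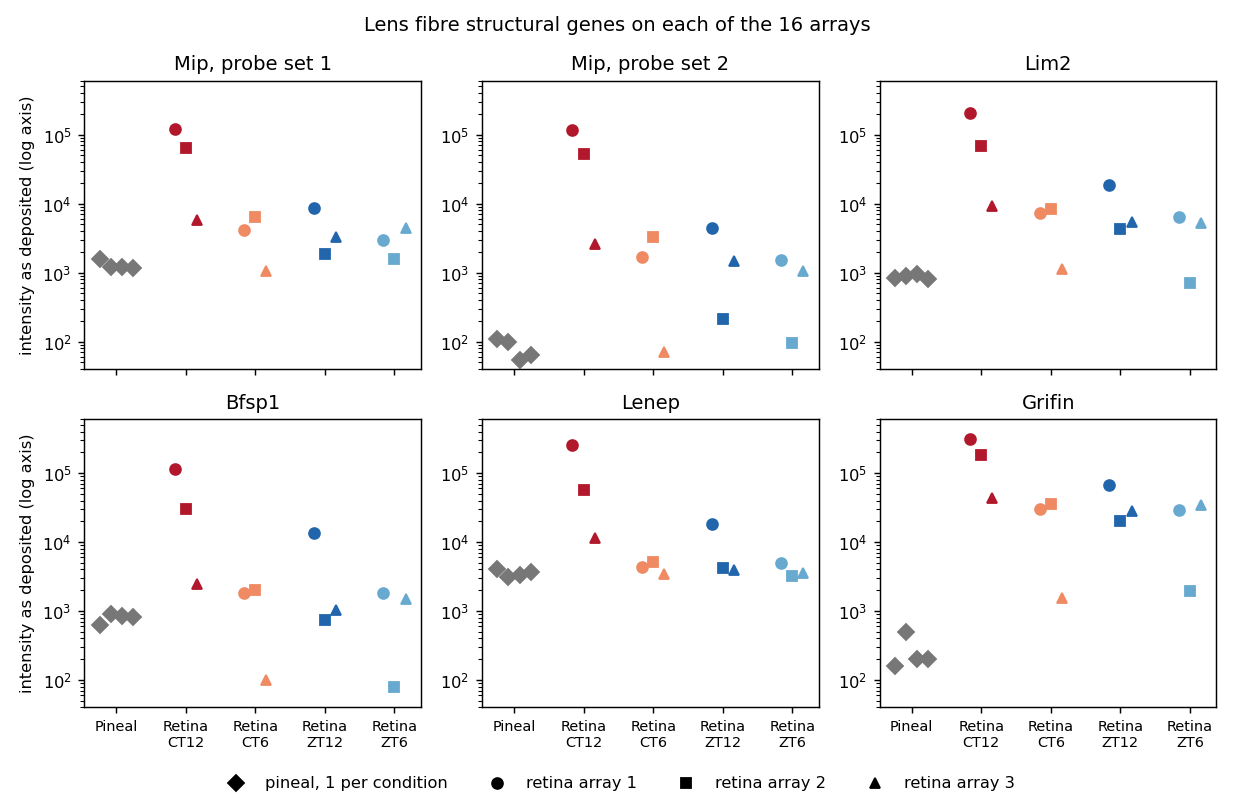
Intensity as deposited (log axis) of each member probe set on each array, by group; symbols give the array number, and Mip probe sets 1 and 2 are X53052cds_at and X53052cds_g_at. CT12 arrays 1 and 2 are the highest in every panel, and ZT6 array 2 and CT6 array 3 are the lowest retina arrays in every panel.

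The members were among the most variable genes of the retina arrays, with an SD on the log2 scale at percentile 99.6 or above of all probe sets. The arrays kept nearly the same order in all 6 probe sets. CT12 array 1 ranked 1, CT12 array 2 ranked 2 and ZT12 array 1 ranked 3 in each of them. ZT6 array 2 and CT6 array 3 held ranks 11 and 12 in each. The 15 pairs of probe sets had Pearson correlations of 0.77 to 0.99 and Spearman correlations of 0.88 to 0.99 on the log2 scale over the 12 retina arrays. These points share the array, and the 2 Mip probe sets share a transcript. Over the 10 arrays without CT12 arrays 1 and 2 the Pearson correlations ran from 0.59 (Lenep with Grifin) to 0.98 (Lim2 with Bfsp1). Between CT12 arrays 1 and 2 the members differed in step size. Array 1 was 4.56-fold above array 2 for Lenep, 3.89-fold for Bfsp1 and 3.06-fold for Lim2, but 2.28-fold for X53052cds_g_at, 1.89-fold for X53052cds_at and 1.70-fold for Grifin. The 6 probe sets together made up 2.63% of the summed intensity on CT12 array 1 and 1.26% on array 2, against 0.0224% to 0.380% on the other 10 retina arrays. Their share on the pineal arrays was 0.0193% to 0.0217%.

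The first retina question was whether the hour mattered under circadian time. At CT12 the members averaged 3.52 to 5.0 log2 units above CT6 (median 3.67), while the median over all 5244 probe sets tested was -0.10. The largest of these differences was 5.0 ± 1.78 for X53052cds_g_at, at 14.62 ± 2.91 in CT12 and 9.61 ± 2.79 in CT6 (mean log2 intensity, SD, n = 3 each; the difference has a standard error). Lenep differed by 3.70 ± 0.93, at 15.76 ± 2.23 against 12.06 ± 0.30, with the lowest p of the 6. Bfsp1 differed by 4.74 ± 1.75, Lim2 by 3.63 ± 1.25, X53052cds_at by 3.53 ± 1.06 and Grifin by 3.52 ± 1.36.

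In limma, 0 of the 6 passed an adjusted p of 0.05 (0.133 to 0.161), against 0% of all probe sets called higher. At an unadjusted p under 0.05 all 6 did, and so did 28.0% of all probe sets. The arrays of CT12 and CT6 did not overlap for Lim2, Bfsp1, Lenep and Grifin, 4 of the 6, against 9.78% of all probe sets with CT12 higher throughout. The result turned on single arrays. Without CT12 array 1 the median difference was 2.78 and 0 passed (adjusted p 0.144 to 0.319). There 2 of the 6 reached an unadjusted p under 0.05, against 19.1% of all probe sets. Without CT12 arrays 1 and 2, leaving array 3 to vary like the other groups, the median difference was 1.57. Without CT12 array 3, 5 of 6 passed, all but Grifin, among 1398 of all probe sets (26.7%) in place of 3.

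Under Zeitgeber time the 6 probe sets were higher at ZT12 by 0.44 to 1.80 log2 units, with standard errors of 0.93 to 1.78. Bfsp1 differed by 1.80 ± 1.75, Grifin by 1.42 ± 1.36, Lim2 by 1.39 ± 1.25, X53052cds_g_at by 1.01 ± 1.78, Lenep by 0.79 ± 0.93 and X53052cds_at by 0.44 ± 1.06. The Lim2 means were 12.90 ± 1.15 at ZT12 and 11.51 ± 1.75 at ZT6 (log2, SD, n = 3 each). In limma 0 of the 6 passed (adjusted p 0.870 to 0.983), and 0.153% of all probe sets were called higher. An unadjusted p under 0.05 was reached by 0 of the 6, against 8.58% of all probe sets. Leaving out CT12 array 1 kept these differences, and 0 of the 6 passed (limma adjusted p 0.565 to 0.851). In that setting 1.41% of all probe sets passed, in either direction. The groups overlapped for every member.

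The regime was compared at each hour. At hour 12, CT12 was above ZT12 by 2.02 (Grifin) to 4.45 (X53052cds_g_at) log2 units, with 0 of 6 passing in limma (adjusted p 0.138 to 0.326) against 0.0763% of all probe sets called higher. An unadjusted p under 0.05 was reached by 3 of 6, against 26.2% of all probe sets. ZT12 array 1 was brighter than CT12 array 3 for all 6 probe sets, so the groups overlapped. Without CT12 array 3, 4 of the 6 passed, against 22.9% of all probe sets in that setting. The median difference was 1.94 without CT12 array 1 and 0.49 without CT12 arrays 1 and 2, against 3.12 with all arrays. In the setting without CT12 array 1, an unadjusted p under 0.05 was reached by 1 of 6, against 19% of all probe sets. At hour 6, CT6 and ZT6 differed by -0.08 (Grifin) to 0.50 (Lim2) log2 units, with standard errors of 0.93 to 1.78. There 0 of 6 passed (adjusted p of 1 in limma), and 0% of all probe sets were called higher. An unadjusted p under 0.05 was reached by 0 of 6, against 4.84% of all probe sets. Leaving out CT12 array 1, 0 of 6 passed as well (limma adjusted p 0.924 to 0.992), against 0% of all probe sets.

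Over both regimes, hour 12 was above hour 6 by 1.99 to 3.27 log2 units (median 2.49, against -0.09 over all probe sets). Lenep differed by 2.25 ± 0.66 and Bfsp1 by 3.27 ± 1.24. In limma 0 of 6 passed (adjusted p 0.194 to 0.268), and 0.133% of all probe sets were called higher. An unadjusted p under 0.05 was reached by all 6 and by 17.8% of all probe sets. Without CT12 array 3, X53052cds_at and Lenep passed, among 1.89% of all probe sets. The median difference was 2.09 without CT12 array 1 and 1.32 without CT12 arrays 1 and 2. In the setting without CT12 array 1, an unadjusted p under 0.05 was reached by 2 of 6, against 18.5% of all probe sets. The time effect under CT exceeded that under ZT by 2.10 to 3.99 log2 units, and the test of this difference was passed by 0 of 6 (limma adjusted p 0.321 to 0.550), with 0.0191% of all probe sets called in either direction. An unadjusted p under 0.05 was reached by 1 of 6, against 15.5% of all probe sets. Without CT12 array 1 the differences were 1.22 to 2.87, and 0 of 6 reached an unadjusted p under 0.05, against 18.1% of all probe sets. This contrast was added after the values were seen.

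**Figure D2:**
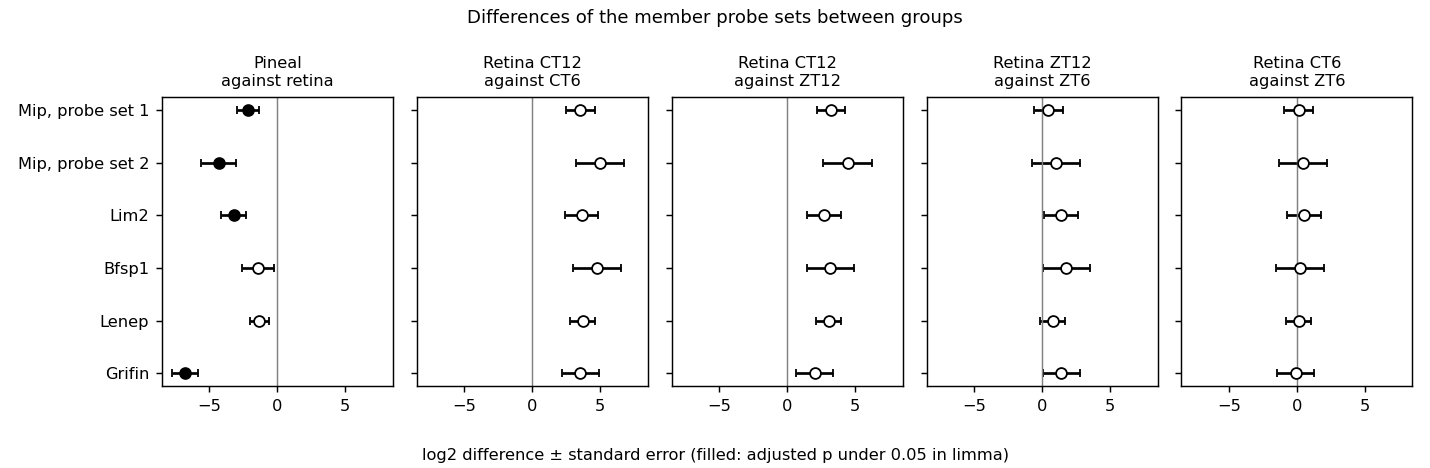
Log2 difference with its standard error for each member probe set in 5 comparisons; filled points passed an adjusted p of 0.05 in limma. Filled points appear only in the comparison of pineal with retina, for both Mip probe sets, Lim2 and Grifin, while the CT12 differences of 2.02 to 5.0 carry errors of 0.93 to 1.78.

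The pineal gland served as a tissue outside the eye. There Grifin fell by 6.82 ± 0.97 log2 units, or 113-fold, relative to the retina (adjusted p = 1.56e-05 in limma with condition as a term), and its arrays did not overlap. Leaving out 1 array moved this from -7.59 (without pineal CT6) to -5.99 (without pineal CT12). X53052cds_g_at differed by -4.32 ± 1.27 (adjusted p = 0.00693), Lim2 by -3.22 ± 0.89 (adjusted p = 0.00441) and X53052cds_at by -2.16 ± 0.79 (adjusted p = 0.0228), and all 3 passed. Bfsp1 differed by -1.43 ± 1.20 (adjusted p = 0.293) and Lenep by -1.32 ± 0.71 (adjusted p = 0.105), and neither passed. The pineal means of Grifin (7.99) and X53052cds_g_at (6.57) lay below the log2 filter limit of 8.81, so these probe sets entered the test through their retina levels, and their folds are against a pineal level with no detection call. In bulk tissue, fewer cells of a type and less RNA per cell cannot be told apart.

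Thus 4 of 6 probe sets passed as lower in the pineal, against 43.5% of all probe sets tested, and 1 of 6 had no overlap, against 29.1%. The same 4 passed without CT12 array 1, where 79.6% of all probe sets passed in either direction (74.4% with all arrays). Without CT12 arrays 1 and 2 the Grifin difference was -6.30 (limma adjusted p = 4.35e-05). Without the pineal CT12 array, which leaves the retina CT12 arrays with no pineal array of their condition, 2 passed. Both Mip probe sets did not (limma adjusted p = 0.174 and adjusted p = 0.0588), while 3828 of all 5244 probe sets passed in either direction. Read array by array, all 12 retina arrays exceeded the highest pineal value for Grifin, 11 for Lim2, 10 for each Mip probe set, 9 for Bfsp1 and 8 for Lenep.

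Crystallins, the soluble proteins that fill lens fibres, followed the same order of arrays. The list was chosen with earlier results of these data known, and 9 of its 16 genes were on the array. Their median, centred on the retina mean, had a Pearson correlation of 0.92 with the mean of the 5 members over the 12 retina arrays and 0.93 and 0.96 without CT12 array 1 and without CT12 arrays 1 and 2. On ZT6 array 2 and CT6 array 3 the crystallin median was -3.43 and -3.78 log2 units, and it was -7.58 to -6.74 on the pineal arrays. On these retina arrays crystallins thus stayed above the pineal. The member mean there, at -3.04 and -3.01, was within its pineal range of -3.07 to -2.79, but it joins unlike members. On the same arrays Grifin, at 1969 and 1544, lay above all 4 pineal arrays. Bfsp1, at 80.2 and 99.8, lay below all 4. At CT12 all 9 crystallins were higher than at CT6 (median 2.64, and 2.23 without CT12 array 1) and 0 passed in limma. The alpha crystallins Cryaa and Cryab, which act as chaperones, differed by 1.61 ± 1.02 and 1.82 ± 1.10. Among the beta crystallins, Crybb2 differed by 2.43 ± 1.42, Crybb3 by 2.62 ± 1.30, Cryba1 by 2.64 ± 1.23 and Cryba4 by 3.09 ± 1.26. In the pineal all 9 passed as lower in limma, against 43.5% of all probe sets tested. Among them Crybb2 was at -6.85 ± 0.91 and Cryab at -7.04 ± 0.80 log2 units on its brightest retina probe set. A second Cryab probe set, M55534mRNA_s_at, had -3.14 ± 0.75. The pineal means of Cryba1, Cryba4, Crybb1, Crygc and Crygd (6.27 to 8.31) lay below the log2 filter limit of 8.81. These genes thus entered the test through their retina levels, and no detection call shows them in the pineal.

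Other lens genes on the array, 19 of 39 listed past the intensity filter, moved less. At CT12 13 of the 19 were higher than at CT6 and 6 lower, with a median of 0.81 (0.44 without CT12 array 1), and 0 passed in limma. The 6 brightest were Sparc, a matrix glycoprotein of many tissues, at -0.58 ± 0.33, the intermediate filament gene Vim at 1.46 ± 0.59, the glucose transporter Slc2a1 at 0.81 ± 0.34, the small heat shock gene Hspb1 at 2.96 ± 0.86, the lens transcription factor Maf at 1.83 ± 0.69 and the cadherin Cdh2 at 0.27 ± 0.35. Maf, which activates crystallin genes, read 20040, 8266 and 3134 at CT12, against 3562, 3361 and 952.5 at CT6. Its pineal level was high as well, at 8185, 4302, 5791 and 3879 at CT12, CT6, ZT12 and ZT6.

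Retinal genes ran the other way on CT12 array 1. The 5 rod genes measured of 10 listed (Sag, Cnga1, Prph2, Rom1 and Pdc) summed to 24157, 283080 and 381344 at CT12, against 401345 to 428851 at CT6, and to 382859 to 420941 at ZT12, against 327629 to 454759 at ZT6. The 6 ganglion cell genes of 7 listed summed to 4038, 45751 and 53625 at CT12, against 54417 to 74171 at CT6. The 4 Müller glia genes of 5 listed summed to 156735 to 184613 at CT12, against 164891 to 177825 at CT6. On CT12 array 1 that sum held 120692 from Clu, against 55021 to 84835 at CT6, while Glul was 34223, against 81244 to 98108 at CT6. Slc1a3 was 1359 there, against 8945 to 10758 at CT6, and Aqp4 was 461.2, against 1241 to 2178. The median Müller glia difference of CT12 from CT6 was -0.68 with 3 of 4 negative (-0.21 without CT12 array 1), and 0 passed in limma. Surface epithelium genes (4 of 6) summed to 24687 to 51735 at CT12, against 10944 to 35904 at CT6, and pigment epithelium genes (2 of 5) to 29872 to 58402, against 13165 to 37878. Iris, ciliary body and smooth muscle genes (4 of 5 past the intensity filter, without Des) summed to 30955, 10370 and 10048 at CT12, against 2964 to 9069 at CT6. At ZT12 they summed to 5478, 5808 and 14048, so ZT12 array 3 lay above CT12 arrays 2 and 3. Over 12 retina arrays the medians of the surface epithelium, pigment epithelium and iris lists correlated with the member mean at 0.41, 0.64 and 0.39. Over the 10 without CT12 arrays 1 and 2 these correlations were 0.00088, 0.14 and -0.11. No gene of these lists was listed at 0. As log2 differences of CT12 from CT6, all 5 rod genes (median -1.49) and all 6 ganglion cell genes (median -1.62) were negative, and 0 of them passed in limma. Without CT12 array 1 these medians were -0.20 and -0.40. The rod median correlated with the member mean at -0.71 over 12 retina arrays and at -0.58 over the 10 without CT12 arrays 1 and 2. On ZT6 array 2 and CT6 array 3, lowest in the members, the rod sums were 454759 and 428851. The surface epithelium sums there were 33150 and 10944. The part of these lists in the differences between CT12 and the other groups was not tested.

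**Figure D3:**
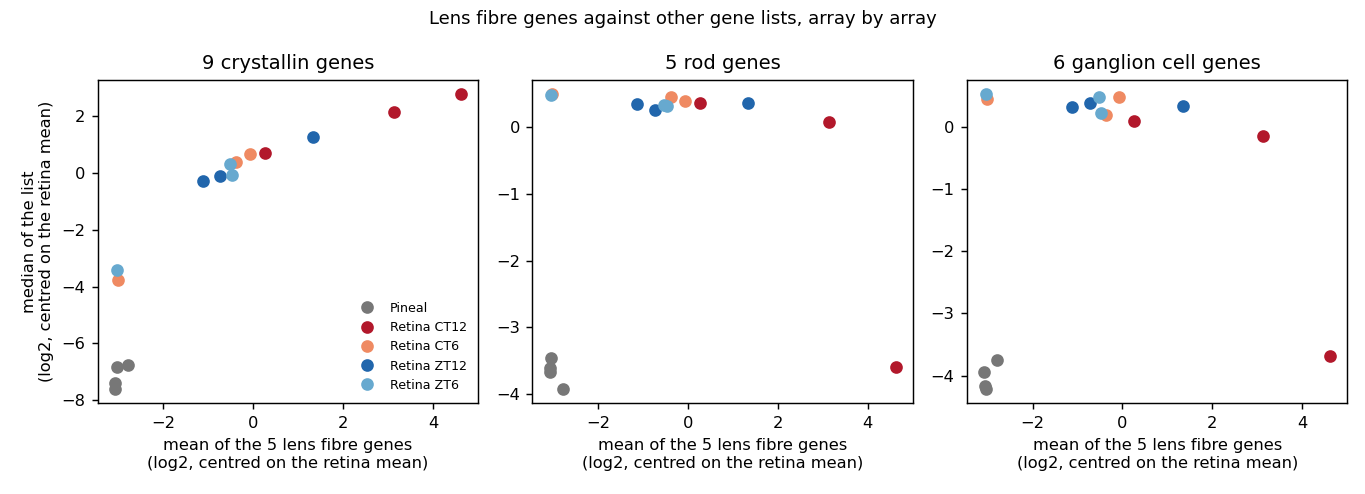
Median of 3 gene lists against the mean of the 5 lens fibre genes, 1 point per array, both in log2 units centred on the retina mean. Crystallins are higher on retina arrays where the lens fibre genes are higher, while the rod and ganglion cell medians are low on CT12 array 1 (-3.60 and -3.68) and on the 4 pineal arrays.

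The genes most like the members were found among 5238 other probe sets by Pearson correlation with the member mean over the 12 retina arrays. Of these probe sets 61 had a correlation above 0.9 and 30 below -0.9, and the median was -0.28. Each gene was ranked by its best probe set. The 12 highest genes had correlations of 0.95 to 0.98, and 4 of them were crystallins: Crybb1 (0.98), Crybb2 (0.97), Crygd (0.96) and Crygc (0.95). The brightest probe sets of Crybb1 and Crybb2 had lower correlations, of 0.95 and 0.82. Maf (0.98) and Pitx3 (0.96), a transcription factor of lens development, were also among them. The others were the calcium-binding S100a4 (0.98), the fatty acid binding Fabp5 (0.96), the periaxin gene Prx (0.96), the myelin protein gene Pmp22 (0.95), the galectin Lgals1 (0.95) and the surface glycoprotein gene Cd24 (0.95). Without CT12 arrays 1 and 2, S100a4 and Crygd stayed at 0.97 and Cd24 was at 0.81. Idh3g (-0.96), a subunit of mitochondrial isocitrate dehydrogenase, and Mdm2 (-0.94), a ubiquitin ligase that acts on p53, ran opposite. They were followed by Dnaja3 and Exoc5 (both -0.93) and Chkb (-0.92). Without CT12 arrays 1 and 2 these negative correlations were weaker, from -0.85 for Idh3g to -0.76 for Dnaja3.

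**Figure D4:**
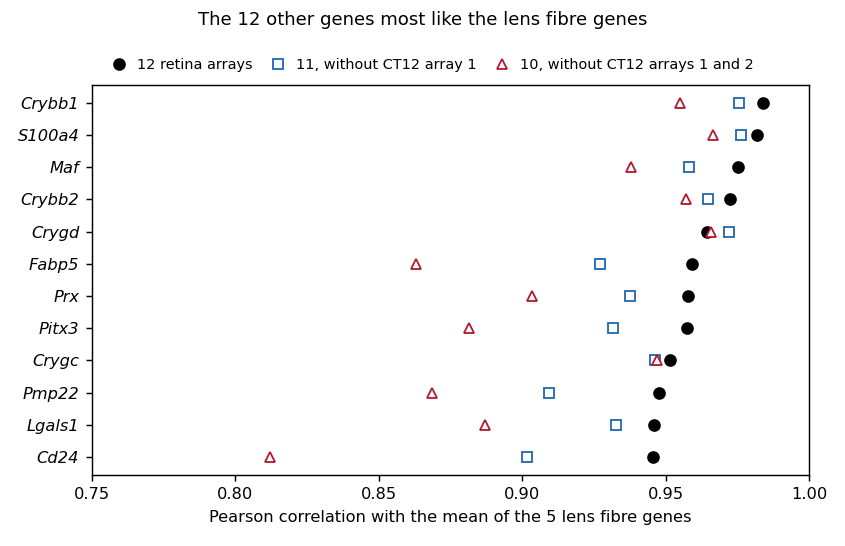
Pearson correlation of the 12 most similar other genes with the mean of the 5 lens fibre genes, over 12, 11 and 10 retina arrays. Correlations over all 12 arrays lie between 0.95 and 0.98, and the lowest without CT12 arrays 1 and 2 is 0.81, for Cd24.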

How the data were processed

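Affymetrix arrays of rat retina (12) and pineal gland (4) were read from the authors' deposited table of 8799 probe sets, whose values are linear intensities scaled to nearly the same trimmed mean (2% trimmed at each end). Summarization, background correction and scaling were not given in the sources used here, and no detection calls were used. Arrays give no counting depth, so their number limits the precision. After removal of 59 controls, values were kept as deposited and transformed as log2 of intensity plus 16. Probe sets whose mean reached the 40th percentile were tested, 5244 in each fit, and all 6 member probe sets passed in both fits. The fold on this scale understates changes of dim probe sets.

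limma 3.58.1 in R 4.3.3 (lmFit, eBayes, two-sided) fitted the 4 retina groups together (8 residual degrees of freedom), and tissue with condition over 16 arrays (11 residual degrees of freedom), with Benjamini-Hochberg adjustment over all 5244 probe sets and a threshold of 0.05. Python 3.11.15 computed descriptions. Symbols come from the platform annotation, updated by gene ID through RefSeq; 7006 probe sets carry 1 symbol, 308 several and 1426 none. Where a gene has several probe sets, its brightest in the retina stands for it in list and mean levels, and its best-correlated one in the ranking by likeness. Named genes were every member, the 6 brightest of each lens list and the 12 highest and 5 lowest correlations with the member mean. The members and lists were chosen with earlier results of these data known. The fit code was run on simulated data. Each probe set had independent noise of equal spread on every array, with no outlying array. That run thus cannot judge fits that CT12 array 1 enters. Alternatives covered offset, normalization, filter, prior, replicate block and arrays left out.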

Additional observations from a re-analysis of the deposited data

Results flagged for a closer look

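In the pineal, 2 of the 6 probe sets had 1 array far from the other 3, by the ratio of its gap from the nearest array to the whole range, which passed Dixon's limit for 4 arrays. For X53052cds_at of Mip the ratio was 0.865, with the ZT6 array at 1590 and the others at 1158 to 1217. For Grifin it was 0.881, with the CT6 array at 496.4 and the others at 159.7 to 199.6. For values from a normal distribution, chance gives such a ratio in about 1 in 20 groups. The ratios here are on linear intensities, and the share of all probe sets that pass the limit is not given. The 4 pineal arrays are also of different conditions, so the count is not read as a result about the members.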

How the results depend on the processing

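Across the alternatives run, 936 of 971 values of single probe sets kept their direction and their side of the threshold, 11 came to pass, 4 no longer passed and 20 changed sign. Part of this was fixed in advance. In a comparison between retina groups, leaving out an array of neither group cannot change the estimate or its sign. Nor can a change of filter or prior. The number of members that passed stayed at 0 in every alternative for ZT12 against ZT6, CT6 against ZT6 and the difference between the time effects. Leaving out 1 array at a time, it ran from 0 to 5 for CT12 against CT6, from 0 to 4 for CT12 against ZT12, from 0 to 2 for hour 12 against hour 6, and from 2 to 4 for pineal against retina. In that last comparison X53052cds_at had -1.69 after quantile normalization (adjusted p = 0.0524 in limma) and -1.65 at a common median (adjusted p = 0.0749). With tissue as the only term, which does not use the label of the pineal ZT12 array, the same 4 passed.

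For ZT12 against ZT6, leaving out 1 array gave -0.15 to 0.94 for X53052cds_at and -0.17 to 2.17 for X53052cds_g_at. For CT6 against ZT6 it gave -0.39 to 0.89 for X53052cds_at, -0.72 to 2.05 for X53052cds_g_at, -0.51 to 1.43 for Lim2, -1.12 to 1.60 for Bfsp1, -0.00046 to 0.33 for Lenep and -1.41 to 1.38 for Grifin, which was 2.11 without all retina arrays numbered 3. Without CT12 arrays 1 and 2, an alternative chosen after seeing the data, the time effects differed by -0.23 for Lim2 and -0.11 for Bfsp1, against 2.24 and 2.94 with all arrays. The cause was not tested.

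Counts over all probe sets depended on single arrays. CT12 against CT6 had 3, from 0 in the 6 arrays alone to 1398 without CT12 array 3; CT12 against ZT12 had 21, from 0 to 1202 in the same settings. ZT12 against ZT6 had 9, from 0 without the arrays numbered 3 to 89 in the 6 arrays alone. Hour 12 against hour 6 had 14, from 0 with no filter to 99 without CT12 array 3. With a replicate block on the array number, 0 members passed in each retina comparison. Deviations from group means correlated above 0.1 in 5 of 18 same-numbered pairs (median 0.03, from -0.40 to 0.41). The 36 differently numbered pairs had a median of -0.04 (from -0.51 to 0.53). Centring within groups of 3 ties the deviations to each other, so this check cannot decide whether the numbers pair the arrays.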
